A study of Mus musculus with 7 samples.

Results

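The simple-epithelium keratins Krt7, Krt8, Krt18, Krt19, Krt20 and Krt23 were followed after silencing of Trp63 in primary keratinocytes of the mouse, the cells that form the epidermis. The 6 genes were chosen with earlier results of these data known. Their probe sets were taken by gene symbol alone, as every probe set whose single symbol in the platform annotation was one of them. All 6 of the 6 listed genes were found, with 8 of 22626 tested probe sets, out of 12393 genes measured on the array. Krt8 had 3 probe sets and each of the others had 1. There were 5 arrays of cells transfected with Trp63-specific siRNA oligonucleotides (replicates 1, 2, 3, 4 and 7) and 2 arrays of cells transfected with non-specific siRNA oligonucleotides (replicates 5 and 6), 1 array per sample. All 7 samples were transfected and were collected 48 h later, so no untransfected cells enter the comparison. The sources used here give no mouse strain, age or siRNA sequence. Nothing says that the replicates came from different cultures, and the p-values then reflect the spread of these 7 samples alone, which may be technical.

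Keratins are the intermediate filament proteins of epithelial cells, and each filament is built from dimers of a type I and a type II chain. Krt8 and Krt7 are type II, while Krt18, Krt19, Krt20 and Krt23 are type I. Krt8 with Krt18 is the main pair of single-layered epithelia such as those of gut, liver and glands, Krt7 and Krt19 mark ducts, and Krt20 marks intestinal epithelium, urothelium and Merkel cells. Stratified epidermis instead uses Krt5 with Krt14 in its basal layer and Krt1 with Krt10 above it. The product of Trp63, p63, is a DNA-binding relative of p53 without which stratified epithelia do not form.

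Trp63 itself read 1565 ± 167 (SD, n = 2) in the controls and 503 ± 31.1 (SD, n = 5) after silencing, at its brightest probe set (log2 difference -1.61, SE 0.088, limma adjusted p = 1.0e-05). Array medians ran from 207 to 214, and log2 values of any 2 arrays correlated across probe sets at 0.968 to 0.999. The ratio of 3' to 5' signal, a measure of RNA integrity, ran from 0.905 to 0.938 for Gapdh with Trp63 siRNA against 0.980 and 0.983 with control siRNA, and from 1.14 to 1.25 for beta-actin against 1.30 and 1.36. These ratios separated the groups in the same way as the keratins below, and their part in the results was not tested. All 9 measured markers of keratinocytes fell, where 8.57% of all genes were lower. They include Trp63 itself, the silenced target, and the others named by the rule were Sfn, Itga6, Col17a1, Krt14, Perp, Itgb4 and Krt15. The summed intensity of the 9 was 41357 to 45509 against 57176 and 59838. The brightest of the 9, Krt14 (control mean 17063) and Krt5 (14460), weigh most in this sum. In such bulk samples fewer cells of a type and less RNA per cell cannot be told apart.

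The 250 bases before the annotated start of the 4 members that rose are shown as background, since p63 is a DNA-binding protein. Binding of p63 to these windows was not tested. They come from RefSeq, build GRCm38.p6, which held 5 of the 6 members (not Krt19), and each is written in the direction of its gene. The windows are chr15:102004343-102004592 (minus strand) for Krt8, chr15:102027966-102028215 (plus strand) for Krt18, chr15:101412153-101412402 (plus strand) for Krt7 and chr11:99493121-99493370 (minus strand) for Krt23. Capitals mark each match to CNNG, any 6 bases and CNNG again, the fixed letters of a p53 family element, a pattern that reads the same on both strands.
Krt8: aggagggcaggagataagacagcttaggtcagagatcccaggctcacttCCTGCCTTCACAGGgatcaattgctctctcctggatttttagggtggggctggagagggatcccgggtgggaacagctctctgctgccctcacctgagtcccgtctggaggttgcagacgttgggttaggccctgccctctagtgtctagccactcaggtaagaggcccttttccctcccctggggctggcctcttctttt
Krt18: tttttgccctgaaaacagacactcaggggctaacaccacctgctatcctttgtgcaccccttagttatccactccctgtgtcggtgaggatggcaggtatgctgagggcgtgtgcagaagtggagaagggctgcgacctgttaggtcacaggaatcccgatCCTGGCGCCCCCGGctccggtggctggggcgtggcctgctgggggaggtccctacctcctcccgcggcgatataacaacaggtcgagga
Krt7: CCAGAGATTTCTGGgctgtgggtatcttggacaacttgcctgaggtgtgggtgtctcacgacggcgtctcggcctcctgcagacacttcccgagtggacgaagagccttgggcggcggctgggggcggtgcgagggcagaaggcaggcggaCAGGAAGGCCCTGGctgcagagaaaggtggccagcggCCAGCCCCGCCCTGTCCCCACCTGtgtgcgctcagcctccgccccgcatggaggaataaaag
Krt23: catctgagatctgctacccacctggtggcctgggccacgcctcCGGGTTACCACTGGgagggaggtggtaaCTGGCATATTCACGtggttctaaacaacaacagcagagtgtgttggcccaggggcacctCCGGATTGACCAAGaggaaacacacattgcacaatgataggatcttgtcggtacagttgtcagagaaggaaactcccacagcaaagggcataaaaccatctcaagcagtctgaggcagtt
The Krt8 and Krt18 windows held 1 match each, Krt23 held 3 and Krt7 held 4, of which 2 overlapped each other. The Krt20 window, which is not shown, held 1. Of 32851 RefSeq promoter windows of the same length, 63.5% held at least 1 match, so most promoters hold these letters. GGGCGG, the box bound by Sp1 factors, was searched on both strands and matched 4 times in Krt7 and in none of the other shown windows (32.7% of all windows hold it). TATAAA and the AP-1 letters TGANTCA, also searched on both strands, matched in none of the 4 shown windows (12.4% and 6.75% of all windows hold them). In Krt8 the Ets core GGAAG matched once, against the direction of the gene (CTTCC as written above), at an overlap of 2 bases with its p63 letters. In Krt7 it matched in both directions (64.1% of all windows hold it). In the RefSeq annotation Krt8 and Krt18 are neighbours, with 2 gene models between them and no protein-coding gene.

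Silencing was accompanied by higher levels of 4 of the 6 genes. Krt18 rose 10.1-fold, Krt8 4.52-fold, Krt23 2.24-fold and Krt7 2.08-fold, while Krt19 and Krt20 did not pass the test. By probe set, 6 of 8 passed in the direction higher with Trp63 siRNA, where 7.83% of all probe sets did. By gene, 4 of 6 were higher against 8.03% of all genes. Since the 6 genes were chosen with earlier results of these data known, these counts are descriptions. None was lower after adjustment by limma, where 8.16% of all probe sets were, and at an unadjusted p under 0.05 there was 1, Krt20. The members had a median log2 difference of 1.11 against -0.04 over all genes, each by its brightest probe set. All folds are on the scale of log2(intensity + 16), which understates the change of dim genes, and the control means of 5 genes lay below every array median. That of Krt23 (209) lay within the range of the medians, with control replicate 5 (257) above all of them. The ratios of the raw mean intensities were accordingly larger, at 11.2 for Krt18, 5.04 for Krt8, 2.31 for Krt23 and 2.18 for Krt7.

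**Figure D1:**
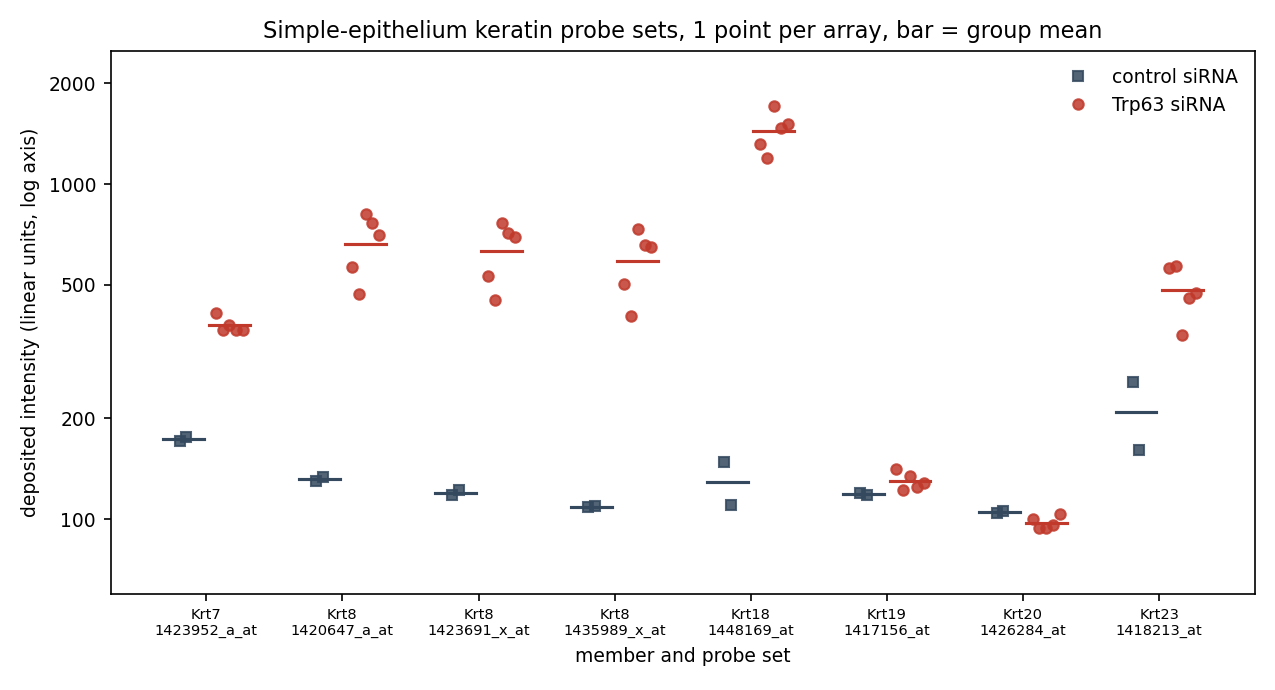
Deposited intensity of the 8 member probe sets on a log axis, with 1 point per array and a bar at the group mean (red circles, 5 Trp63 siRNA arrays; dark squares, 2 control siRNA arrays). For Krt7, Krt8, Krt18 and Krt23 every silenced array lies above both controls. Krt19 and Krt20 lie between 94.1 and 141 in both groups. By small margins their silenced arrays are also all above the controls (Krt19) or all below them (Krt20). Of all probe sets, 14.2% had all silenced arrays higher and 22.4% had all of them lower.

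Krt18, the type I partner of Krt8, read 1318, 1200, 1712, 1475 and 1514 in silenced replicates 1, 2, 3, 4 and 7, against 148 and 110 in control replicates 5 and 6. The groups were far from overlapping, and replicate 3 was the highest. The log2 difference was 3.33 (SE 0.14, 95% interval 3.01 to 3.65, limma adjusted p = 3.21e-06), the fifth in size among all probe sets. The controls differed from each other by more for Krt18 than for Krt8, with a coefficient of variation of 20.7% against 1.65%.

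Krt8, the type II partner, read 568, 470, 814, 765 and 706 at its brightest probe set against 130 and 133 in the controls. No silenced array came near the controls, and replicates 1 and 2 were the lowest of the 5. The log2 difference was 2.18 (SE 0.19, 95% interval 1.75 to 2.60, limma adjusted p = 0.000113). The other Krt8 probe sets gave 2.23 (SE 0.19) and 2.25 (SE 0.20), with limma adjusted p = 9.77e-05 and 0.000121. They read 533, 450, 768, 716 and 693 against 118 and 122, and 504, 405, 735, 656 and 648 against 108 and 109. Thus all 3 probe sets put the silenced arrays in the same order, with replicate 3 highest and replicate 2 lowest, and their estimates differed by less than 1 SE. The log2 ratio of the first to the second was 0.07 ± 0.028 (SD, n = 5) with Trp63 siRNA and 0.12 ± 0.0077 (SD, n = 2) in controls. In the maker's naming, the suffix x marks probe sets with some probes that resemble other sequences and the suffix a marks probes shared by transcripts of 1 gene. Keratin genes resemble each other in sequence, so cross-hybridisation was not tested by this agreement.

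Krt7, a type II keratin of ducts and glands, read 413, 366, 380, 368 and 367 against 172 and 176. It was the least variable of the genes that rose, with a coefficient of variation of 5.23% over the silenced arrays, where Krt8 had 21.4%. The log2 difference was 1.06 (SE 0.067, 95% interval 0.91 to 1.21, limma adjusted p = 2.38e-05).

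Krt23, a type I keratin that is less well studied than the others, read 562, 568, 354, 458 and 472 against 257 and 161. The groups did not overlap, and 14.2% of all probe sets likewise had every silenced array higher. The gap between the lowest silenced array and the higher control was small beside that of Krt18. The log2 difference was 1.16 (SE 0.20, 95% interval 0.71 to 1.62, limma adjusted p = 0.00474). Without control replicate 6, the lower control, the difference was 0.85 and no longer passed (limma adjusted p = 0.0691), so that 5 member probe sets were higher instead of 6. Without control replicate 5 it was 1.48.

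Krt19, a small type I keratin without a tail domain, read 141, 122, 134, 125 and 129 against 120 and 118. All 5 silenced values were higher than both controls by a small margin, an order that 14.2% of all probe sets showed. The log2 difference was 0.11 (SE 0.054, 95% interval -0.01 to 0.24, limma adjusted p = 0.194), so a change above 1.18-fold lay outside the interval on this scale.

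Krt20, the type I keratin of intestine and Merkel cells, read 100, 94.2, 94.1, 95.9 and 103 against 104 and 106. The silenced values were all lower, also by a small margin, an order that 22.4% of all probe sets showed. The log2 difference was -0.09 (SE 0.040, limma adjusted p = 0.162, unadjusted p = 0.0489). Both Krt19 and Krt20 lay below the array medians in every sample. Dim probe sets compress differences, and no detection calls were used.

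The genes that rose did not follow the same order over the silenced arrays. Krt8 and Krt18 were both highest in silenced replicate 3 and lowest in replicates 1 and 2. Krt23 was the reverse, highest in replicates 1 and 2 (562 and 568) and lowest in replicate 3 (354). Krt7 was highest in replicate 1 and level in the other 4. Relative to the mean of the controls, Krt8 stood at log2 1.98 and 1.72 in replicates 1 and 2 and at 2.49, 2.40 and 2.29 in replicates 3, 4 and 7. Krt18 stood at 3.21 and 3.08 against 3.58, 3.37 and 3.41, and Krt23 at 1.39 and 1.41 against 0.75, 1.11 and 1.15.

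**Figure D2:**
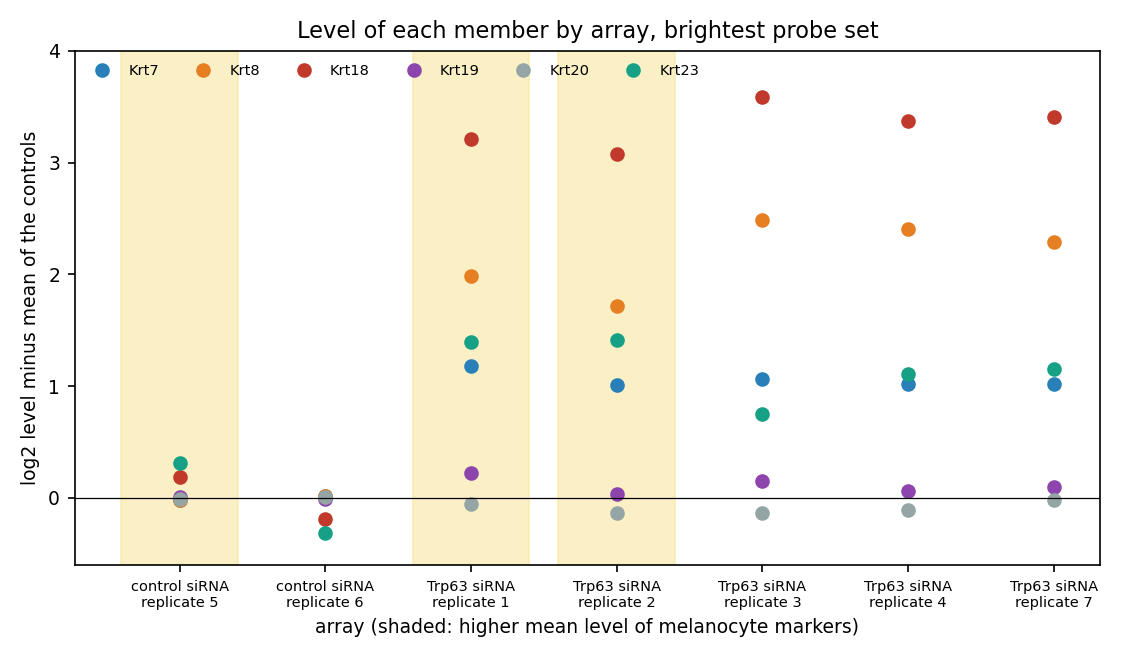
Log2 level of each member (brightest probe set) minus the mean of the 2 controls, by array. Shading marks the 3 arrays with the higher mean level of melanocyte markers. Krt8 and Krt18 are lower and Krt23 is higher in silenced replicates 1 and 2 than in replicates 3, 4 and 7, while Krt7 stays between 1.01 and 1.18.

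The same arrays differed in melanocyte markers, the genes of the pigment cells that accompany keratinocytes in skin. Their mean log2 level was 9.47 and 9.51 in silenced replicates 1 and 2 and 9.39 in control replicate 5, against 8.94 to 8.998 in silenced replicates 3, 4 and 7 and in control replicate 6. Of 9 measured markers none was called between the groups by limma (0 at an unadjusted p under 0.05 too), where 16.6% of all genes were called. Their summed intensity ran from 7081 to 12346 with Trp63 siRNA and from 6929 to 10424 with control siRNA. Their brightest members, Dct and Pmel, read 3136 ± 1048 and 2127 ± 706 (SD, n = 5) against 3101 ± 916 and 1872 ± 631 (SD, n = 2). Within the 3 arrays of high level (2 silenced, 1 control) the log2 difference was 2.96 for Krt18, 1.86 for Krt8, 1.09 for Krt23 and 1.11 for Krt7. Within the 4 arrays of low level (3 silenced, 1 control) it was 3.64, 2.38, 1.32 and 1.02. The direction in each set was fixed, since every silenced array lay above both controls for these genes, and each set held 1 control. With the split as a block all 4 passed (limma adjusted p = 5.92e-05 or lower). Between the controls, Krt23 (257 against 161) and Krt18 (148 against 110) were both higher in replicate 5, the control of high melanocyte level. Among the silenced arrays Krt23 was higher and Krt18 lower where that level was high. The part of melanocyte content in these differences was not tested.

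Ratios between members were compared between the groups on the log2(intensity + 16) scale. The log2 ratio of Krt18 to Krt8 shifted by 1.16 between groups, from -0.04 ± 0.29 (SD, n = 2) in controls to 1.12 ± 0.15 (SD, n = 5) with Trp63 siRNA. The ratio of Krt18 to Krt7 shifted by 2.27, that of Krt19 to Krt8 by -2.06 and that of Krt19 to Krt7 by -0.94. By exact permutation over the 21 splits of the arrays (two-sided), each of these 4 comparisons gave p = 0.0476 (0.0476 after Benjamini-Hochberg adjustment over the 4), which is the smallest value the design allows. The rises of Krt8 and Krt18 were known when these pairs were set, so the 3 shifts that involve them are descriptions. The shift of Krt19 to Krt7 is a description too. Its p-value followed from the separation of Krt7 between the groups, since Krt19 differed little (log2 difference 0.11). Only a shift of a ratio between groups is meaningful here, since levels of different probe sets cannot be compared, and a dim control level compresses each change by an unknown amount. With control levels as dim as these (129 for Krt18, 132 for Krt8 and 119 for Krt19), the shifts do not show that the genes themselves changed by unequal amounts.

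The other keratins moved in both directions. Of 33 other keratin genes measured, 4 rose and 8 fell, where 8.03% and 8.57% of all genes were higher and lower. The other 21 did not pass, and the median log2 difference was -0.08. The counts of 4 and 8 were the same with quantile normalisation and with median centring. Among 17 other type II keratins, those of stratified and hair-forming epithelium, 4 rose: Krt79 (2.78, SE 0.42), Krt77 (1.56, SE 0.18), Krt4 (1.45, SE 0.39) and Krt80 (1.15, SE 0.14). Krt79 is a keratin of hair follicle and sebaceous duct cells and Krt4 one of internal stratified epithelia such as oesophagus. The type II genes that fell were Krt6b (-1.81), Krt1 (-1.79), Krt5 (-0.32) and Krt6a (-0.26), which serve activated, suprabasal and basal epidermis. Among 16 other type I keratins 4 fell, the suprabasal Krt10 (-1.53), the wound keratin Krt16 (-0.62) and the basal Krt15 (-0.42) and Krt14 (-0.20). Control means of Krt14 (17063), Krt5 (14460) and Krt6a (13164) lay toward the top of the scale, where control arrays reached 16960 and 17165. Whether signal so near the top compressed their falls was not tested. Krt4 lost its call without either control or without silenced replicate 2 (limma adjusted p = 0.17, 0.17 and 0.055), Krt16 without either control (0.151 and 0.0888), and Krt1 without control replicate 5 (0.0861). Krt4 also failed without a variance trend (0.0542), with robust variances (0.1) and with the spike level as a block (0.0528), and Krt16 failed with robust variances (0.0644).

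**Figure D3:**
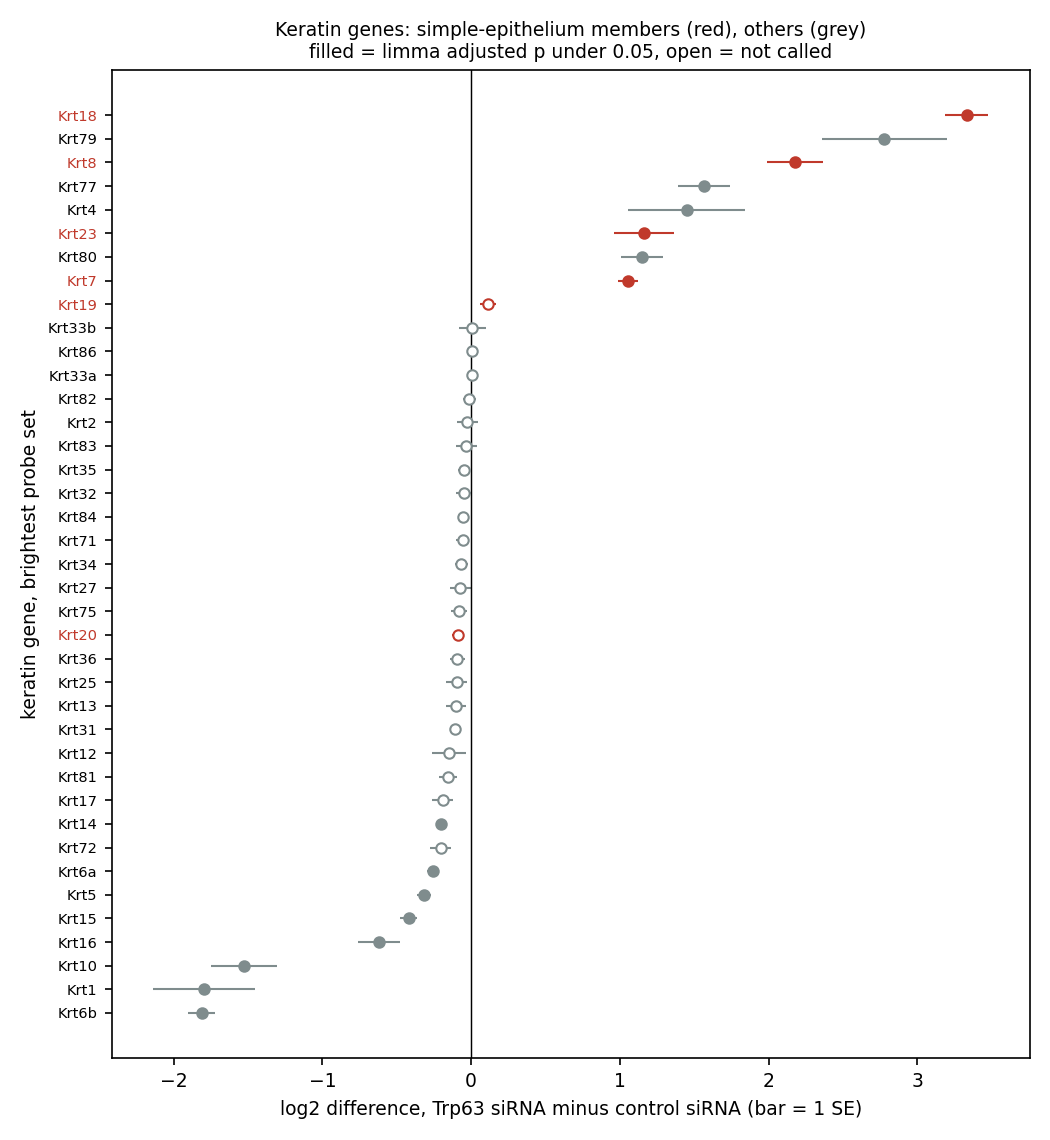
Log2 difference (Trp63 siRNA minus control siRNA, n = 5 and 2) of 39 keratin genes by their brightest probe set, with bars of 1 SE; red marks the 6 simple-epithelium members, filled points have a limma adjusted p under 0.05. The 8 filled points to the right of 0 are Krt18, Krt8, Krt23 and Krt7 with Krt79, Krt77, Krt4 and Krt80. The 8 to the left are Krt6b, Krt1, Krt10, Krt16, Krt15, Krt5, Krt6a and Krt14.

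Genes that anchor or maintain keratin filaments also split. Of 14 measured, 4 rose and 4 fell, with a median of -0.17, where 8.03% and 8.57% of all genes were higher and lower. The plakin genes Dst (log2 difference -1.60) and Plec (-0.79), which tie keratins to hemidesmosomes, and Dsp (-0.39), which ties them to desmosomes, fell, as did the heat shock gene Hspb1 (-0.35). Pkp2, the desmosomal plakophilin of simple epithelia, rose from 165 ± 15.3 (SD, n = 2) to 313 ± 9.01 (SD, n = 5), a log2 difference of 0.87 (limma adjusted p = 5.9e-05). Ppl (0.89), a plakin of the cornified envelope, rose too, with Sqstm1 (0.45) and Dnajb6 (0.27), an autophagy receptor and a keratin-binding chaperone. With control replicate 6 left out, Sqstm1 and Dnajb6 did not pass (limma adjusted p = 0.115 and 0.0873). Of 14 other intermediate filament genes none was called by limma, with 2 lower at an unadjusted p under 0.05, and the brightest, Lmna and Vim, differed by 0.10 and 0.24.

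Other genes linked to simple epithelia, listed with earlier results of these data known, were more often higher than lower. Of 29 measured, 14 rose, 1 fell and 14 did not pass, where 8.03% and 8.57% of all genes were higher and lower, and the list median was 0.11. Cldn3 (2.51, SE 0.12) and Cldn7 (1.31, SE 0.15), which encode tight junction claudins, rose with the adhesion gene Epcam (1.76, SE 0.12) and the membrane protein genes Prom1 (1.74, SE 0.094) and Psca (2.44, SE 0.26). Smaller rises were those of the protease inhibitor gene Spint2 (0.47) and the lipocalin gene Lcn2 (0.57), and Cd24a fell (-0.51). Some listed genes were already bright in the control keratinocytes, such as Cd24a (8060), Cdh1 (3289) and Spint2 (2999). The list is thus not confined to simple epithelia. For 16 of the 29 the control mean lay below the median of the control arrays. The number that rose was 11 without control replicate 5 and 10 without control replicate 6. The mucin genes Muc1 (129 against 134) and Muc4 (79.0 against 80.2) and the microvillus gene Vil1 (85.5 against 86.8) were dim in both groups and did not pass, values chosen after they were seen.

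**Figure D4:**
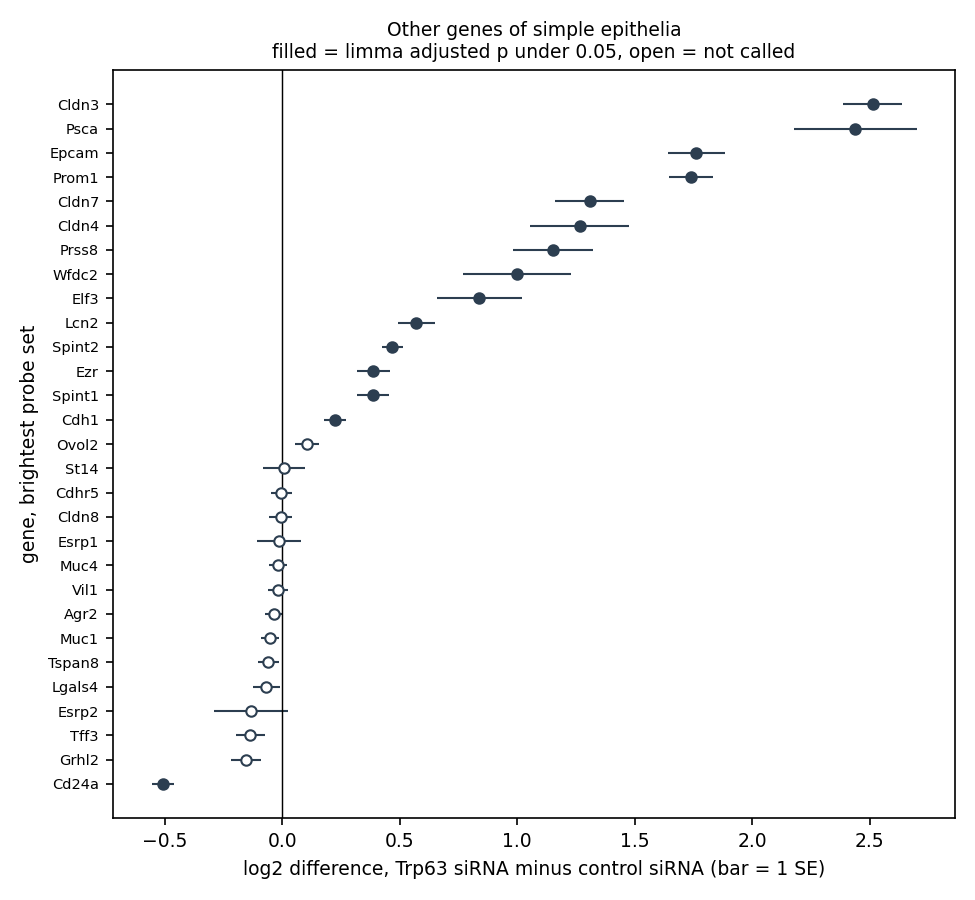
Log2 difference (Trp63 siRNA minus control siRNA, n = 5 and 2) of 29 other genes linked to simple epithelia, by their brightest probe set, with bars of 1 SE. Filled points have a limma adjusted p under 0.05. The 14 filled points to the right of 0 run from Cdh1 (0.23) to Cldn3 (2.51), and Cd24a is the only filled point to the left.

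Of 20 measured transcription factors linked to these keratins, 3 rose and 2 fell, where 8.03% and 8.57% of all genes were higher and lower. The list median was 0.02, and the number called ran from 2 to 9 over the alternatives. Ets1 (0.69, SE 0.067), of the Ets family that acts on the Krt18 gene, the epithelial Ets gene Elf3 (0.84, SE 0.18) and the AP-1 gene Jund (0.31) rose, while Klf5 (-0.45) and Tfap2c (-0.42) fell. Both falls were lost without either control, without any of silenced replicates 3, 4 and 7, with median centring and with the spike level as a block. Tfap2c also failed with quantile normalisation (limma adjusted p = 0.0505) and Klf5 without a variance trend (limma adjusted p = 0.0525). Elf3 failed without control replicate 6 (limma adjusted p = 0.146), and Jund failed without control replicate 5 (limma adjusted p = 0.169).

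Markers of other cells that carry these keratins were mostly dim. The calls among them stand beside 8.03% of all genes higher and 8.57% lower. All 13 measured markers of Merkel cells, the touch cells of skin that hold Krt8, Krt18 and Krt20, lay below the array median in both groups, and their summed intensity was 1394 to 1473 against 1459 and 1473. Their defining gene Atoh1 read 112 against 111, and the 1 call among them, Sox2 (93.7 against 84.2, log2 difference 0.13), was lost without either control and under other alternatives. Of 7 mesothelium markers Msln rose (2.27, SE 0.10) and Upk3b fell slightly (-0.12, lost without either control and under other alternatives), while Wt1, named after its value was seen, read 87.3 against 93.1. At an unadjusted limma p under 0.05, 1 of the 7 was higher (Msln) and 4 were lower. These 4 were Upk3b, Wt1, Bnc1 (600 against 827) and Pdpn (304 against 428). The list median was -0.08. The summed level of the mesothelium list was 1870 to 2008 against 1777 and 1854, within which Msln read 605 against 113.

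The counts of the next lists also stand beside 8.03% of all genes higher and 8.57% lower. Of 9 markers of sebaceous gland and duct, 5 rose: Krt79, Plin2 (0.37), Scd1 (0.56), Dgat2 (0.62) and Pparg (0.15). The last 3 lost their calls without control replicate 6, so that 2 rose, and Pparg also under other alternatives. Their sum was 9117 to 11825 against 6758 and 7560. The 4 that did not pass were Fasn (1743 against 1543), Lrig1 (250 against 199), Mc5r (131 against 138) and Elovl3 (104 against 111). Of these the gland genes Mc5r and Elovl3 were dim, and all 4 were named after their values were seen. Of 8 sweat and glandular duct markers Aqp5 rose (0.62, lost without either control and under other alternatives), and the sum was 2170 to 2505 against 2310 and 2485. Fibroblast markers had 1 rise (Col1a1, 0.44, limma adjusted p = 0.0504 without control replicate 6) and 1 fall (Fbln1, -0.46) among 10, with sums of 1664 to 2084 against 1617 and 1874. Immune cell markers had 1 rise (Cd68, 0.60) and 1 fall (Tyrobp, -0.20) among 10, with sums of 1643 to 1859 against 1695 and 1788, and neither passed without control replicate 6, nor in some other alternatives. Of 8 endothelium markers none was called by limma, with 2 lower at an unadjusted p under 0.05. Their brightest genes, Emcn and Kdr, read 177 against 181 and 124 against 138, and their sum was 856 to 928 against 888 and 962. No marker can be listed at 0 on these arrays, whose lowest intensities were 58.5 to 60.7. The part of other cell types in the rise of the keratins was not tested beyond these values.

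The genes whose profile over the 7 arrays lay nearest to each risen member were found by the root mean square distance between log2 levels centred on the controls, as a description. Nearest to Krt8 was the claudin gene Cldn3 at a probe set with a difference of 2.09 (distance 0.12), followed by the metalloproteinase inhibitor gene Timp3 (distance 0.16) and the stress-induced gene Nupr1 (0.19). Nearest to Krt18 was Clu, the clusterin gene (0.16), while the next, Bex1 (0.47) and another Timp3 probe set (0.70), were much farther. These distances mix the size and the shape of a profile. By absolute change alone, Krt18 ranked 5 among all probe sets.

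Krt7 lay nearest to the retinol dehydrogenase gene Rdh10 (0.062), the desmosome gene Pkp2 (0.066) and Epb41l1 (0.074), a gene of the membrane skeleton. These were single probe sets, and another Epb41l1 probe set differed by 1.41 where the one nearest to Krt7 differed by 1.07. Krt23 lay nearest to the lipid phosphatase gene Lpin2 (0.088), the keratinocyte nuclease gene Dnase1l2 (0.11) and the keratin gene Krt80 (0.12). Krt80 read 2812 ± 238 (SD, n = 5) against 1286 ± 372 (SD, n = 2) and, like Krt23, varied much between the controls. Krt8 and Krt18 were 0.99 apart by this measure, which takes in the size of the measured difference, and Krt7 and Krt23 were 0.28 apart.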

How the data were processed

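Total RNA was Trizol-extracted, labelled as biotinylated cRNA and hybridised to Affymetrix arrays, per the labels' protocols. The deposited table held linear intensity values, 1 per probe set and array; the sources used here do not give the authors' probe summary, background correction or normalisation. The 64 array controls among 22690 probe sets were dropped. The platform annotation gave 20380 of the 22626 tested probe sets 1 gene symbol, 691 several and 1555 none; 20351 were matched through Entrez IDs to current symbols. The brightest probe set over all arrays stood for its gene, and every member probe set was reported.

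Values became log2(intensity + 16). The test was two-sided, by lmFit and eBayes with a trend (limma 3.58.1, R 4.3.3), adjusted by Benjamini-Hochberg across the 22626 and called at 0.05. No filter was applied, and the number of arrays limits the precision. No set test was run. The 16 lists (199 of 224 entries measured) covered the members, other type I and type II keratins, filament partners, other intermediate filaments, simple epithelium, transcription factors and markers of keratinocytes, Merkel cells, mesothelium, sebaceous and sweat glands, melanocytes, fibroblasts, immune cells and endothelium. The members and lists were chosen with earlier results of these data known. Genes were named by rule: all called genes of a list up to 8, else the 8 of smallest p, or the 2 brightest where none was called, and 3 nearest profiles per risen member.

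In simulated data for 22626 probe sets the procedure found 39 of 50 with a log2 change of 0.5, 97 of 100 with 1 and 49 of 50 with 2, with 13 false calls. The simulated noise was normal and independent between probe sets, with no difference shared by a whole array. These rates therefore check the procedure and need not hold for the real arrays. Alternatives were pseudocounts of 1 and 64, quantile normalisation, centring on the median, removal of probe sets under the 25th or 50th percentile, other variance models, array weights, blocks for spike and melanocyte levels, and each array left out; those for the ratios between members were chosen after seeing the data. Promoter windows came from RefSeq. Figures used matplotlib 3.10.9 in Python 3.11.15.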

Additional observations from a re-analysis of the deposited data

How the results depend on the processing

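Krt7, Krt8 and Krt18 kept their direction and passed limma's test under all 18 alternatives, with log2 differences of 0.90 to 1.12, 1.87 to 2.30 and 2.96 to 3.52 (brightest probe sets). Krt23 kept its direction under all 18 and lost its call under 1: over the arrays left out in turn it ran from 0.85 to 1.48, and the lowest, without control replicate 6, had limma adjusted p = 0.0691. Krt19 (0.08 to 0.14) and Krt20 (-0.11 to -0.06) stayed uncalled in the 17 and 16 alternatives that gave a value; the 50th percentile filter removed both, and the 25th removed Krt20. Member probe sets called numbered 5 or 6, other keratin genes 9 to 15 (12 as reported) and listed genes 33 to 67 (49 as reported). Over the array the count of 3618 became 5458 with the melanocyte split as a block, and 1374 to 5502 with 1 array left out (1374 and 2013 without control replicates 6 and 5, 5502 without silenced replicate 1). Shifts of ratios ran, with 1 array left out, from 0.95 to 1.36 for Krt18 to Krt8, from -0.97 to -0.92 for Krt19 to Krt7, from -2.16 to -1.99 for Krt19 to Krt8 and from 2.07 to 2.48 for Krt18 to Krt7; with 6 arrays the exact test cannot pass its threshold. The count for the transcription factor list ran from 2 to 9, and leaving out a control assumes that the other varies like the silenced arrays. No paired analysis was possible because the groups share no replicate number. Signal over background limits Krt19 and Krt20 and all control levels, since folds of dim probe sets are compressed.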
